A study of Mus musculus with 12 samples.

Results

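Perineuronal nets are lattices of extracellular matrix that wrap the cell body and proximal dendrites of certain neurons, most prominently the fast-spiking inhibitory neurons that contain parvalbumin. This account covers 8 genes, namely parvalbumin (Pvalb), the 4 lecticans (Acan, Bcan, Ncan and Vcan), the link proteins Hapln1 and Hapln4 and the cross-linker tenascin-R (Tnr), out of 47729 genes measured by RNA sequencing of mouse amygdala. They were found by gene symbol through their Ensembl identifiers, and all 8 passed the filter of at least 10 reads in total. The samples are the bilateral amygdalae of 12 untreated, isogenic female C57/BL6 mice, with 1 library per mouse, and the mice came from a single supplier at 7 weeks of age. Each mouse was tested in the elevated plus maze at 9 weeks, in the light/dark box at 10 weeks and in the three-chamber social interaction test at 11 weeks. The labels call 3 mice less anxious (3, 7 and 12), 4 anxious (1, 4, 8 and 11) and 4 more anxious (2, 6, 9 and 10), and give no such state for mouse 5, which the authors left out as an outlier.

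The anxiety state is a predicted one. The authors derived it from a principal component of the amygdala RNA itself, so a gene's difference between these groups is not independent of how the groups were made. They picked that component because it followed the maze and light/dark box measures, so those measures are not independent of the groups either. The state did not match these measures in every mouse. The more anxious mouse 6 had the highest share of time in the light (46.6%), of distance in the light (41.9%) and of open-arm time (29.2%). The more anxious mice 2, 9 and 10 had open-arm shares of 2.33%, 4.30% and 3.25%. The behavior values themselves were recorded apart from the RNA and were compared with the genes separately. No group was treated or carries an allele that the others lack. Estimated counts totalled between 31745630 and 45142355 per mouse in the 11 mice with a state. All 8 markers listed for amygdala nuclei had enough reads to be tested, with a summed level of 113 to 211 CPM per mouse (read counts scaled to a library of 1000000), and the 7 listed striatal genes summed to between 180 and 673 CPM, so genes typical of the neighboring striatum were also detected, at levels that differed between mice.

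In a net, the lecticans are chondroitin sulfate proteoglycans that attach to hyaluronan at the cell surface. The link proteins stabilize that attachment, and tenascin-R ties lecticans together. Aggrecan, encoded by Acan, is the lectican most closely tied to nets around parvalbumin neurons, whereas brevican (Bcan) and neurocan (Ncan) are spread more widely through the brain's matrix and versican (Vcan) is also made by cells of the oligodendrocyte lineage. In the amygdala, nets are known for their part in the persistence of fear memory.

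Transcript levels of these genes differed widely, and the gene most closely tied to nets was the scarcest of them. Per kilobase of exon (the union of all annotated exons), Bcan had the highest level, 58.8 ± 3.85 CPM per kilobase (SD, n = 11 mice). Ncan followed with 26.7 ± 2.65 CPM per kilobase. Hapln4 at 17.4 ± 2.02 and Tnr at 15.7 ± 1.57 CPM per kilobase came next, and the ranges of this pair overlapped between mice. Pvalb reached 8.16 ± 1.07 CPM per kilobase. Below it lay Hapln1 at 3.47 ± 0.536 and Vcan at 2.20 ± 0.448 CPM per kilobase, another pair whose ranges overlapped. Acan had the lowest level, 0.454 ± 0.0652 CPM per kilobase, from 109 to 187 reads per mouse. Apart from those pairs, every mouse placed each gene above the highest value of the next gene in the order, and the order was the same when the longest transcript of each gene set its length.

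**Figure D1:**
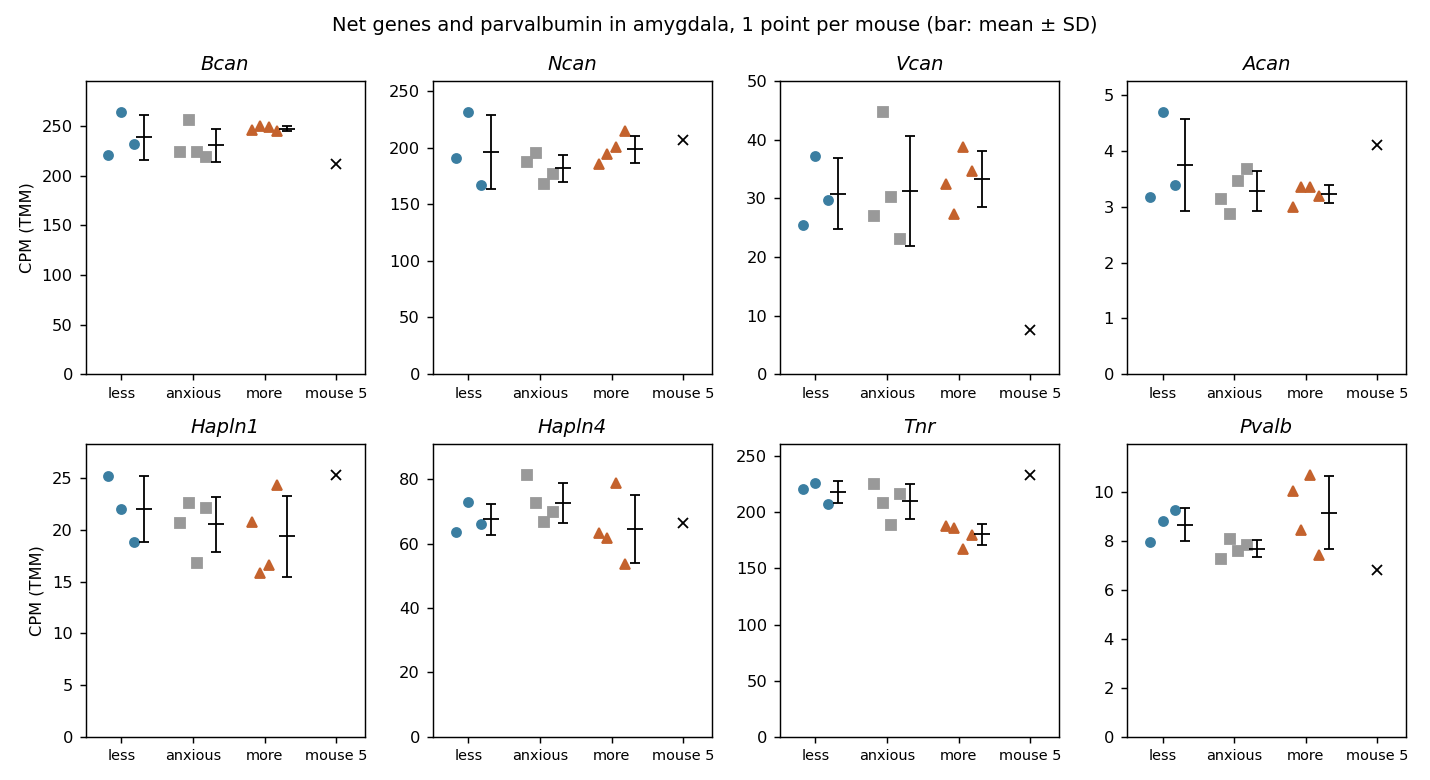
CPM (y axis, starting at 0 in each panel) of the 8 genes in every mouse by predicted anxiety state (x axis), with mean ± SD of each group as a bar and mouse 5, which has no state, as a cross. Tnr is the gene whose 4 more anxious mice (168 to 188 CPM) all lie below the 3 less anxious mice (208 to 227 CPM), and Vcan in mouse 5 (7.52 CPM) lies far below the other mice.

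How much a gene varied between mice also set the genes apart. Bcan was among the steadiest transcripts in this tissue, with a coefficient of variation of 6.55% over the 11 mice, and only 4.77% of the 15891 genes with a mean of at least 1 CPM had a lower one. This ranking was not matched for level, and counting error is larger for genes with fewer reads than Bcan (mean 239 CPM). Vcan was the most variable of the 8 genes, at 20.3%, with a 1.94-fold span from mouse 11 to mouse 4. The others lay between 9.96% (Ncan) and 15.4% (Hapln1), against a median of 14.3% over those 15891 genes. Counting error alone would give 1.05% for Bcan, 2.87% for Vcan and 8.84% for Acan, which means that depth limited the precision of Acan most.

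Brevican, the main lectican of the adult brain, had close to the same level in all 3 anxiety groups, and its interval was the narrowest of the 8 genes. Bcan (ENSMUSG00000004892, chr3:87987531-88000230, minus strand, GRCm38) was measured at 221, 264 and 232 CPM in the less anxious mice 3, 7 and 12. The anxious mice 1, 4, 8 and 11 had 224, 256, 224 and 219 CPM. The more anxious mice 2, 6, 9 and 10 had 246, 250.05, 249 and 245 CPM, the tightest group of all, inside the range of the less anxious mice. The difference between more and less anxious mice was 0.04 ± 0.09 (log2 fold change ± SE, 95% interval -0.15 to 0.22), and the test of any difference between the 3 groups gave an adjusted p of 0.952 (edgeR's quasi-likelihood F-test, Benjamini-Hochberg adjusted over the 26963 genes that were tested, as for every adjusted p of the groups here).

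Neurocan, a lectican that is abundant in the developing brain and persists in the adult, spread most in the less anxious mice. Ncan (ENSMUSG00000002341, chr8:70093085-70120873, minus strand) had 191, 231 and 167 CPM there, 187, 195, 168 and 177 CPM in the anxious mice and 186, 194, 200.1 and 214 CPM in the more anxious mice, with mice in the order given above. Its highest and lowest values both came from less anxious mice, 7 and 12. The log2 fold change between the outer groups was 0.01 ± 0.11 (95% interval -0.23 to 0.25, adjusted p across the groups by edgeR 0.951).

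Versican, the large lectican of immature matrix and of oligodendrocyte precursors, varied within groups more than between them. Vcan (ENSMUSG00000021614, chr13:89655312-89742509, minus strand) had 25.4, 37.2 and 29.8 CPM in the less anxious mice. In the anxious mice it ran from 27.0 in mouse 1 through 44.7 in mouse 4 and 30.3 in mouse 8 to 23.0 CPM in mouse 11, so that this group alone held both the highest and the lowest value. The more anxious mice had 32.4, 27.4, 38.7 and 34.7 CPM. The log2 fold change of more against less anxious mice was 0.10 ± 0.21 with a wide 95% interval of -0.36 to 0.55 (edgeR's adjusted p across the groups 0.989). The antisense gene Gm4117 overlaps the locus of Vcan but shares 0 exon bases with it.

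Aggrecan had 3.17, 4.69 and 3.39 CPM in the less anxious mice 3, 7 and 12. The anxious mice had 3.13, 2.86, 3.46 and 3.68 CPM, and the more anxious mice 3.00, 3.36, 3.35 and 3.20 CPM. Apart from mouse 7, every mouse lay between 2.86 and 3.68 CPM. For Acan (ENSMUSG00000030607, chr7:79053483-79115099, plus strand) the log2 fold change was -0.24 ± 0.18 (95% interval -0.63 to 0.15) and edgeR's adjusted p across the groups was 0.948. Without mouse 7 the fold change was -0.03.

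The values of the link proteins, which clamp lecticans onto hyaluronan, overlapped between all groups. Hapln1 (ENSMUSG00000021613, chr13:89539796-89611652, plus strand) had 25.2, 22.0 and 18.8 CPM in the less anxious, 20.7, 22.6, 16.8 and 22.1 CPM in the anxious and 20.7, 15.8, 16.6 and 24.3 CPM in the more anxious mice. The more anxious group covered almost the whole range of the gene. Its log2 fold change was -0.14 ± 0.15 (95% interval -0.47 to 0.19, edgeR's adjusted p across the groups 0.978). Hapln4 (ENSMUSG00000007594, chr8:70083457-70090862, plus strand), the partner of brevican at inhibitory synapses, had 63.5, 72.9 and 66.1 CPM in the less anxious, 81.3, 72.6, 66.7 and 69.7 CPM in the anxious and 63.4, 61.8, 78.9 and 53.8 CPM in the more anxious mice. The more anxious group held both the lowest value and, in mouse 9, the second highest. The log2 fold change was -0.06 ± 0.12 (95% interval -0.33 to 0.21, edgeR's adjusted p across the groups 0.940).

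Tenascin-R was the gene of the 8 with the clearest order of the groups. Tnr (ENSMUSG00000015829, chr1:159523769-159931729, plus strand) had 221, 227 and 208 CPM in the less anxious mice 3, 7 and 12. The anxious mice 1, 4, 8 and 11 had 225, 208, 189 and 217 CPM. The more anxious mice 2, 6, 9 and 10 had 188, 186, 168 and 179.5 CPM, below every less anxious and every anxious mouse. The anxious mouse 8 (188.7 CPM) and the more anxious mouse 2 (188.1 CPM) were nearly tied, within the counting error of 1.15% for this gene. Mean levels were 218 ± 9.62 CPM (SD, n = 3), 210 ± 15.6 CPM (n = 4) and 180 ± 9.24 CPM (n = 4). The log2 fold change of more against less anxious mice was -0.27 ± 0.09 (95% interval -0.47 to -0.08), and that of more against anxious mice was -0.22 ± 0.08.

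The difference in Tnr did not pass the test over all genes. Across the 3 groups edgeR gave an adjusted p of 0.682 (unadjusted 0.0195), and between the outer groups an adjusted p of 0.388 (unadjusted 0.0101). DESeq2's likelihood ratio test of the same model gave an adjusted p of 0.182 (unadjusted 0.00578). An exact permutation test of the trend of log2 CPM over the group order, two-sided over 11550 arrangements of the mice, gave r = -0.80 and p = 0.00468, without adjustment for the 8 genes so examined. For the other members this exact p ran from 0.210 (Acan) to 0.725 (Ncan). Tnr had r = 0.71 with the second principal component of these counts, signed to fall from less to more anxious mice. Since the groups were made from such a component, the arrangements were not equally likely beforehand. The exact p of Tnr therefore describes the order and is no independent test. Across the groups, edgeR's unadjusted value was 0.0533 without mouse 7, 0.0767 without mouse 9 and 0.0559 without mouse 10, and lay between 0.00977 and 0.0334 without each of the others. Without mouse 9, Hapln4 was the gene under an unadjusted 0.05, at 0.0428.

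Astrocyte markers, like those of several other cell types and regions, had fold changes in the same direction as Tnr. Of the 8 listed astrocyte genes, 8 had a negative log2 fold change between the outer groups, with a median of -0.22 beside 0.00364 over all genes tested. The summed level of these markers was 3582 to 4289 CPM in the less anxious, 3045 to 3780 CPM in the anxious and 3061 to 3537 CPM in the more anxious mice. Slc1a3, a glutamate transporter of astrocytes, had a log2 fold change of -0.50 ± 0.12 and was called by DESeq2 but not by edgeR (adjusted p across the groups 0.0293 by DESeq2 and 0.492 by edgeR). Fold changes were also negative for 6 of 6 endothelial genes (median -0.58), 7 of 7 striatal genes (-0.55), 6 of 6 genes of pallidum and basal forebrain (-0.59), 6 of 6 microglial genes (-0.19), 5 of 6 choroid plexus genes (-0.51) and 7 of 8 myelin genes (-0.13). The markers of amygdala nuclei themselves were negative for 7 of 8 (median -0.22), as were 5 of 6 fibroblast genes (-0.22) and 4 of 6 thalamic genes (-0.14). Of 6 hypothalamic genes, with summed levels of 2.01 to 24.8 CPM, 5 were positive (median 0.90). The 9 markers of oligodendrocyte precursors had a median of 0.10, and the 7 glutamatergic markers one of 0.32 with 6 of 7 positive. In bulk tissue, fewer cells of a type and less RNA per cell cannot be told apart, and the part of these markers in the values of Tnr was not tested.

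Pvalb encodes a calcium-binding protein that buffers calcium in fast-spiking interneurons. The gene (ENSMUSG00000005716, chr15:78191114-78206400, minus strand) had 7.95, 8.81 and 9.28 CPM in the less anxious mice 3, 7 and 12, and 7.27, 8.07, 7.60 and 7.85 CPM in the anxious mice. The more anxious mice 2, 6, 9 and 10 had 10.0, 8.45, 10.7 and 7.43 CPM. The anxious mice sat close together, while the more anxious group held the highest value and the second lowest. The log2 fold change between the outer groups was 0.08 ± 0.15 (95% interval -0.24 to 0.40, edgeR's adjusted p across the groups 0.911), and that of more against anxious mice was 0.25 ± 0.14.

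**Figure D2:**
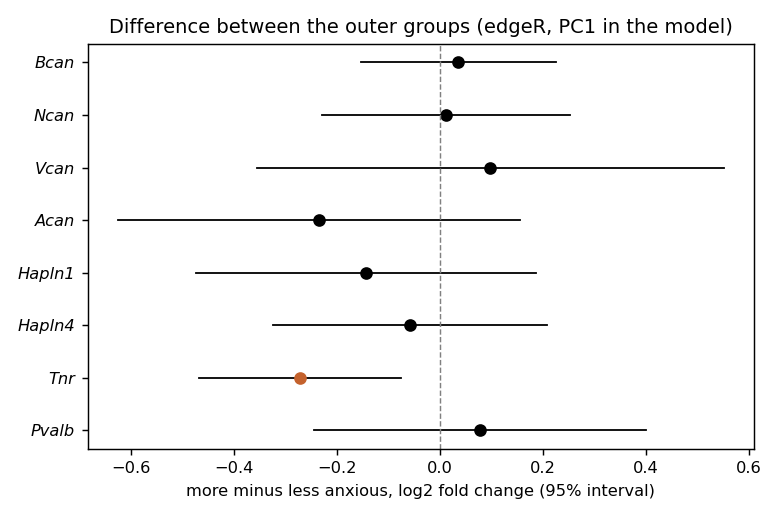
Log2 fold change of more against less anxious mice (x axis) for each of the 8 genes (y axis), as points with 95% intervals from edgeR with the score of the first principal component in the model. The interval of Tnr (-0.47 to -0.08, colored) lies below 0, the other 7 include 0, and Vcan has the widest.

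Of the 8 genes, 0 passed an adjusted p of 0.05 in edgeR's test of the 3 groups, where 0.00742% of all genes did, and 0 passed between the outer groups, where 0.0445% did. At an unadjusted p under 0.05, 1 of the 8 (Tnr) passed across the groups, beside 6.35% of all genes, and 1 passed between the outer groups, beside 8.84%. DESeq2's test called 0 of the 8 at an adjusted p of 0.05, against 1.3% of the genes it adjusted, and 1 of the 8 at an unadjusted p, against 4.95%. The values of less and more anxious mice did not overlap, with more anxious mice lower, for 1 of the 8 genes and for 4.75% of genes with a mean of at least 1 CPM, and with more anxious mice higher for 0 of the 8 genes and for 5.27%. The 8 fold changes split evenly, 4 positive and 4 negative.

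The levels of Vcan and Ncan went with that of Bcan from mouse to mouse, more closely than other pairs of the 8 genes did. Over the 11 mice, log2 CPM of Bcan and Vcan had a Pearson r of 0.80 (permutation p = 0.00366, adjusted over the 28 pairs 0.102) and a Spearman rho of 0.81 (permutation p = 0.00367, adjusted 0.103). Leaving out the 2 mice farthest from the median of Bcan, 11 and 3, left r at 0.68. Bcan and Ncan had r = 0.72 (permutation p = 0.0115, adjusted 0.162) and rho = 0.65 (permutation p = 0.0364, adjusted 0.509), with r = 0.78 without mice 11 and 3. Without mice 7 and 12, the 2 farthest from the median of Ncan, r was 0.63. Neither relation passed after adjustment. These were the 2 pairs of 28 with an r of at least 0.6, and they shared Bcan. Among 15890 genes ordered by r with Bcan, Vcan took rank 31 and Ncan rank 119.

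**Figure D3:**
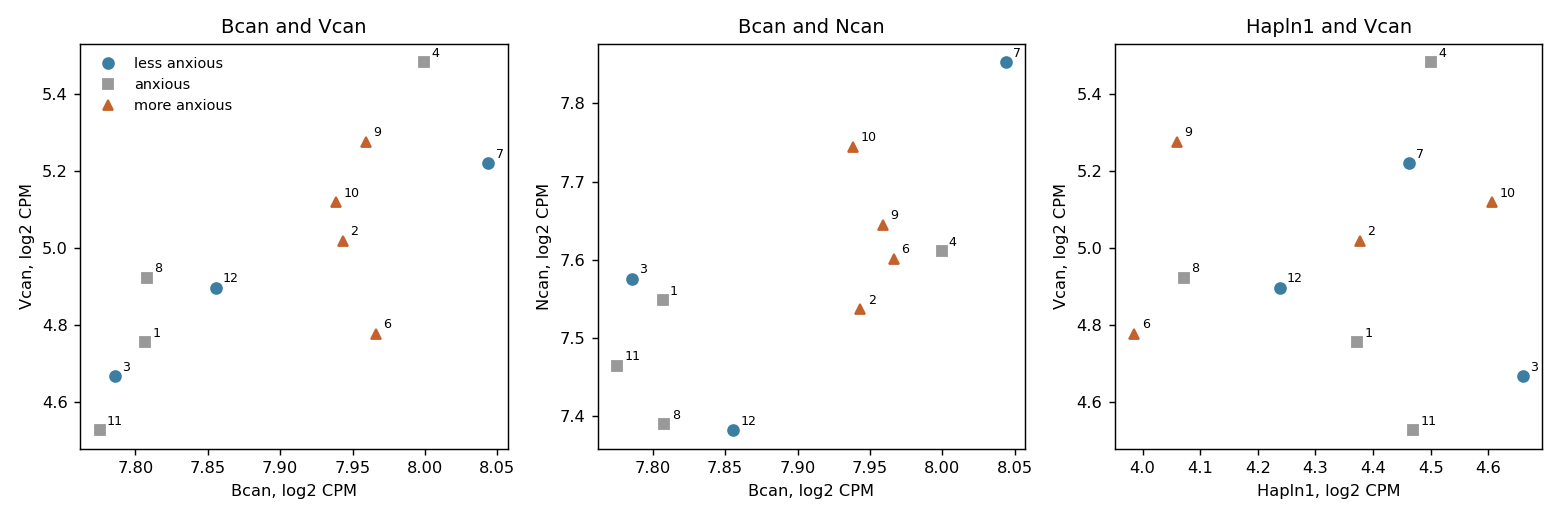
Log2 CPM of Vcan and of Ncan (y axes) against that of Bcan, and of Vcan against its neighbor Hapln1, with 1 numbered point per mouse and groups by color and shape. The points of Bcan with Vcan (r = 0.80) and with Ncan (r = 0.72) rise together across groups, while those of Hapln1 and Vcan (r = -0.01) do not.

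Each lectican gene lies beside a link protein gene in the mouse genome, but for the neighbors among these 8 genes no relation was detectable over the 11 mice. Vcan and Hapln1 are separated by 43.7 kb on chromosome 13, on opposite strands and with 0 protein-coding genes between them, and had r = -0.01 (permutation p = 0.980) with rho = -0.05 (permutation p = 0.903). Ncan and Hapln4 are 2.22 kb apart on chromosome 8, also on opposite strands, and had r = -0.03 (permutation p = 0.920) with rho = 0.09 (permutation p = 0.797). Without the 2 mice farthest from the median of the lectican, r was -0.08 for the Vcan pair and -0.29 for the Ncan pair. Without the 2 farthest from the median of the link protein, r was 0.05 for the Vcan pair and 0.42 for the Ncan pair. The r of the Ncan pair thus changed sign with the mice left out. The other lecticans have neighbors outside the 8 genes. Bcan lies 21.5 kb from Hapln2, the link protein of nodes of Ranvier, at 4.77 to 13.6 CPM. The annotated ends of Acan and Hapln3 (1.14 to 3.07 CPM) are 2 bases apart, on opposite strands. Reads near that boundary may be less certain, which was not tested.

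The promoters of Bcan, Vcan and Ncan are shown because these genes had the closest relations, beside those of Tnr and Pvalb for comparison. Each line gives the 250 bases before the start site in RefSeq (GRCm38.p6), 5′ to 3′ on the gene's strand, with matches to 5 short motifs in capitals.
Bcan, chr3:88000357-88000606, minus strand: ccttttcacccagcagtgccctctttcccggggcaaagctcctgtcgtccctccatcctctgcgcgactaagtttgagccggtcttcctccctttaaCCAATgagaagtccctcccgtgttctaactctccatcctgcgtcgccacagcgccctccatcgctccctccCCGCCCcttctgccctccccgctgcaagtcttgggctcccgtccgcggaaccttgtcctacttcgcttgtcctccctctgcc
Vcan, chr13:89742513-89742762, minus strand: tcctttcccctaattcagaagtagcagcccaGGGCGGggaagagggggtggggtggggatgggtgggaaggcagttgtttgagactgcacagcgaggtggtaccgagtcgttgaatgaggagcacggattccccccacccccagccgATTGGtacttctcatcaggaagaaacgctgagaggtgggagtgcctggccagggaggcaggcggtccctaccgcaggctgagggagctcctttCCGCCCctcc
Ncan, chr8:70120845-70121094, minus strand: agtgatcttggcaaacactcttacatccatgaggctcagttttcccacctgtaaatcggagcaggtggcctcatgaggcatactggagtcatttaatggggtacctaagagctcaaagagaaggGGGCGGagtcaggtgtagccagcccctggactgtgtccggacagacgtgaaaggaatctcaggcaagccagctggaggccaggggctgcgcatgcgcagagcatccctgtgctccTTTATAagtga
Tnr, chr1:159523519-159523768, plus strand: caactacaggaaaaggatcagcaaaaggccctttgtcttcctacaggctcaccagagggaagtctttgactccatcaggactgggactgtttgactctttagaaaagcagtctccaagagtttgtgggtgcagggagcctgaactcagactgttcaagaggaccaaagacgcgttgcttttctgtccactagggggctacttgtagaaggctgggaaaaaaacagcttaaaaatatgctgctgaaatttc
Pvalb, chr15:78206401-78206650, minus strand: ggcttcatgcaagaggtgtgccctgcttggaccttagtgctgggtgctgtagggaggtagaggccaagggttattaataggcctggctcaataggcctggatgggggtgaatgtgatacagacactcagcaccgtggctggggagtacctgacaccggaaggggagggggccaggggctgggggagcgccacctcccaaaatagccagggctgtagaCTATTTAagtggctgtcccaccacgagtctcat
Motifs were searched on both strands. Of the 32851 promoters of this length in the table, 12.4% held the TATA box (TATAAA), 33.8% the CCAAT box, 32.7% the GC box (GGGCGG), 6.02% the E-box (CACGTG) and 2.63% a MEF2-type motif (CTATTTA). Bcan and Vcan both held a CCAAT box and a GC box, Ncan held a GC box and a TATA box on the opposite strand, and no searched motif was found in the Tnr window. Acan, whose window is not printed, also held a CCAAT box and a GC box, although its r was 0.19 with Bcan and -0.06 with Vcan. Pvalb held CTATTTA 33 to 27 bases before its start site. CG dinucleotides numbered 16 in Bcan, 10 in Vcan, 6 in Ncan, 4 in Pvalb and 2 in Tnr, beside a median of 6. These letter matches describe the windows and do not show that a factor binds there.

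The genes of the net were also compared with cell-type markers from mouse to mouse. Adjusted p-values are over the relations of these genes alone. The share of all genes that follow the marker lists as closely was not counted, so these relations cannot be called particular to the 8 genes. Among 48 relations between the 8 genes and 6 marker lists, 6 had a permutation p under 0.05 and 1 passed adjustment, that of Ncan with the summed level of 7 markers of glutamatergic neurons (r = 0.85, permutation p = 0.00086, adjusted 0.0413, with rho = 0.88, permutation p = 0.00079, adjusted 0.0379). It held without the 2 mice farthest from the median of the markers, 12 and 3 (r = 0.90). Camk2a, a kinase of excitatory synapses that supplies most reads of that list, was also the single gene most like Ncan (r = 0.91). Tnr had r = 0.74 with the 8 astrocyte markers (permutation p = 0.00907, adjusted 0.131, with rho = 0.73, permutation p = 0.0147, adjusted 0.228), and r = 0.63 without mice 7 and 3. Its r with the endothelial markers was 0.56 (permutation p = 0.0698, adjusted 0.449). With the lists of oligodendrocyte precursors, myelin, parvalbumin interneurons and glutamatergic neurons it was 0.13, 0.11, 0.33 and -0.29. Vcan had r = 0.74 with the 9 markers of oligodendrocyte precursors (permutation p = 0.00806, adjusted 0.131, with rho = 0.59, permutation p = 0.0598, adjusted 0.412), but without mice 4 and 11 r fell to 0.38, so that relation rests on these mice. Bcan had r = 0.72 with the same precursor markers (permutation p = 0.0109, adjusted 0.131, with rho = 0.71, permutation p = 0.0190, adjusted 0.228), and r = 0.63 without mice 4 and 11. It also had r = 0.69 with the glutamatergic markers (permutation p = 0.0214, adjusted 0.205, with rho = 0.75, permutation p = 0.0116, adjusted 0.228), and r = 0.70 without mice 12 and 3. Hapln1 had r = 0.61 with the astrocyte markers (permutation p = 0.0473, adjusted 0.379, with rho = 0.52, permutation p = 0.107, adjusted 0.530), and r = 0.48 without mice 7 and 3.

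**Figure D4:**
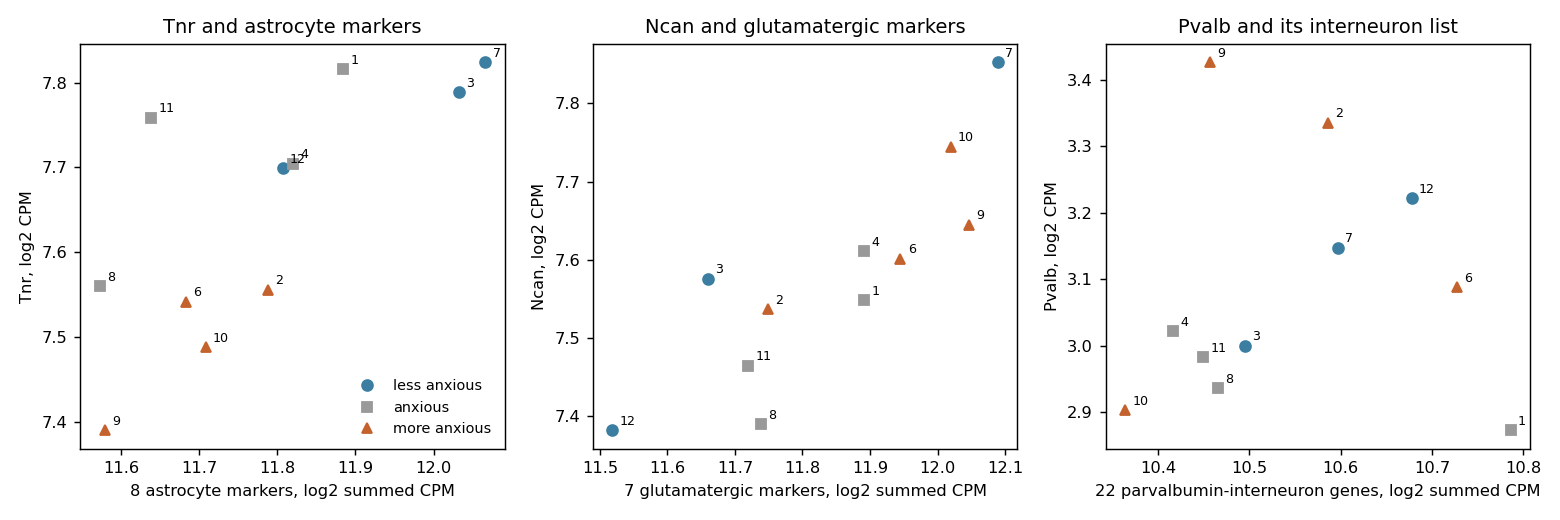
Log2 CPM of Tnr, Ncan and Pvalb (y axes) against the log2 summed CPM of astrocyte markers, glutamatergic markers and genes of parvalbumin interneurons (x axes), with 1 numbered point per mouse. Ncan follows the glutamatergic markers (r = 0.85), Tnr follows the astrocyte markers more loosely (r = 0.74), and the points of Pvalb are scattered.

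The genes most like each member over the 11 mice, out of 15890, differed from member to member. Hapln1 was most like Aqp4, the water channel of astrocytes (r = 0.94), ahead of Zfp131 (0.94) and Snhg18 (0.92). Pvalb was most like Slc16a3, a lactate transporter (r = 0.96), ahead of Prpf4 (0.86) and Lage3 (0.86). For Acan the leading genes were Adcy9 (r = 0.94), Slc24a4 (0.94) and Extl1 (0.92), and for Tnr they were Ndc1 (0.94), Kcnn3, a calcium-activated potassium channel (0.94), and Snx27 (0.94). Bcan was led by Ube3b (r = 0.91), Chtf18 (0.91) and Llgl1 (0.88), and Vcan by Spsb4 (0.90), Ppard (0.88) and Trnp1 (0.87). Hapln4 was led by Wwox (r = 0.92), Ssbp3 (0.88) and Clstn2 (0.87), and after Camk2a, Ncan was led by Itga2b (0.90) and Psat1 (0.85). With so many genes and 11 mice, values of this size are picked as the highest of each list and are given as a description.

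Other genes of the matrix and the enzymes that build its sugar chains gave no call between the groups. In the wider matrix list, which holds hyaluronan synthases, pentraxins, receptors and other proteoglycans, 0 of 20 genes passed at an adjusted p of 0.05 across the groups and 0 passed unadjusted. Among them, the brain-specific phosphatase Ptprz1, itself a chondroitin sulfate proteoglycan, averaged 276 ± 30.5 CPM (SD, n = 3) in the less anxious and 229 ± 46.2 CPM (n = 4) in the more anxious mice, and Tnc, the relative of Tnr, 13.4 ± 4.01 and 11.6 ± 1.57 CPM. Of the 20 tested enzymes of chondroitin sulfate synthesis, from the xylosyltransferases to the sulfotransferases, 0 passed adjusted or unadjusted. The medians of both lists were near 0, at 0.02 and -0.01 on the log2 scale.

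Matrix proteases and their inhibitors gave 1 gene at an unadjusted p under 0.05 among 22 tested, and 0 after adjustment. Timp3, an inhibitor of metalloproteases that itself binds to the matrix, averaged 108 ± 7.84 CPM (SD, n = 3) in the less anxious, 87.8 ± 9.21 CPM (n = 4) in the anxious and 82.8 ± 8.97 CPM (n = 4) in the more anxious mice. Its log2 fold change was -0.37 ± 0.11 (edgeR's adjusted p across the groups 0.632). Over the list, 15 of 22 fold changes were negative and the median was -0.08, beside 0.00364 over all genes tested.

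The list of genes of parvalbumin interneurons holds markers of these cells other than Pvalb, several of them shared with other inhibitory neurons. Of 22 genes, 0 passed after adjustment and 2 passed unadjusted, in opposite directions. Kcnab3, a subunit of voltage-gated potassium channels, had a log2 fold change of 0.32 ± 0.12 (edgeR's adjusted p across the groups 0.757). Syt2, the fast calcium sensor of parvalbumin terminals, averaged 10.5 ± 3.79, 6.55 ± 1.02 and 9.23 ± 1.32 CPM from less through more anxious mice, lowest in the middle group (adjusted p 0.674). Gad1, which makes the inhibitory transmitter GABA, had a log2 fold change of -0.10 ± 0.14 and Kcnc1, the fast potassium channel of these cells, 0.07 ± 0.10. Pvalb had r = 0.07 with the summed level of this list (permutation p = 0.830) and rho = 0.14 (permutation p = 0.694), with r = 0.53 without mice 1 and 6.

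Behavior posed another question, whether any of the 8 genes followed what the mice did. The measures were the share of time and of distance in the lit box, the share of time in the open arms, the number of maze entries, and the ratio of box to zone in the social test at 3, 5 and 10 min. Slopes were fitted per SD of each measure. Over 56 relations, 0 passed an adjusted p of 0.05 by edgeR or by DESeq2, and 1 passed unadjusted by either tool. Slopes were positive in 17 of the 56.

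By the edgeR slopes, that relation was the one of Vcan with the share of distance travelled in the light. Distance in the light ran from 16.6% to 41.9% with a median of 27.6%, and the slope of Vcan was -0.17 ± 0.07 on the log2 scale per SD of it (95% interval -0.32 to -0.02, adjusted p 0.848 by edgeR, unadjusted 0.0294). The Pearson r was -0.57 (permutation p = 0.0687, adjusted over the 56 relations 0.948) and Spearman's rho -0.65 (permutation p = 0.0343, adjusted 0.915). Without the 2 mice farthest from the median distance, 6 and 2, r was -0.64. With mouse 5 included, the slope was -0.00192. By Pearson's r, the 1 relation of 56 with a permutation p under 0.05 was another, that of Bcan with the social ratio at 10 min (r = -0.60, permutation p = 0.0424, adjusted 0.948, with rho = -0.59, permutation p = 0.0600, adjusted 0.915), and r was -0.51 without mice 3 and 2. The edgeR slope of that relation was -0.06 ± 0.04 (adjusted p 0.727). The closest other slopes to that of Vcan were those of Vcan on time in the light, -0.13 ± 0.07 (edgeR's adjusted p 0.9997), and on the social ratio at 10 min, -0.13 ± 0.08 (0.697).

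Tnr had positive slopes on the measures of the lit box and the open arms, none of which passed the test. Its slope was 0.06 ± 0.05 on time in the light, 0.07 ± 0.05 on distance in the light and 0.06 ± 0.05 on open-arm time, and the 95% intervals of all 3 included 0. The Pearson r of Tnr was 0.36 with time in the light (permutation p = 0.281, adjusted 0.948, with rho = 0.51, permutation p = 0.115, adjusted 0.919) and 0.82 without mice 6 and 3. With distance in the light it was 0.49 (permutation p = 0.129, adjusted 0.948, with rho = 0.46, permutation p = 0.154, adjusted 0.930) and 0.76 without mice 6 and 2, so both values depended on the mice farthest from the median of the measure. Mouse 5, which is not in these values, had 12.05% of time and 16.6% of distance in the light, below every mouse with a state. Its Tnr, 233 CPM, lay above that of every mouse with a state, opposite to the direction of these relations. The r of Tnr was not computed with mouse 5 included. With open-arm time the r of Tnr fell, but stayed positive, when mice were left out. It was 0.44 (permutation p = 0.178, adjusted 0.948, with rho = 0.37, permutation p = 0.261, adjusted 0.973) and 0.25 without mice 2 and 10. Pvalb had slopes between -0.09 ± 0.06 on distance in the light and 0.01 ± 0.07 on the social ratio at 3 min. The largest upward slope of any of the 8 genes was that of Acan on open-arm time, 0.10 ± 0.07 (95% interval -0.06 to 0.25).

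**Figure D5:**
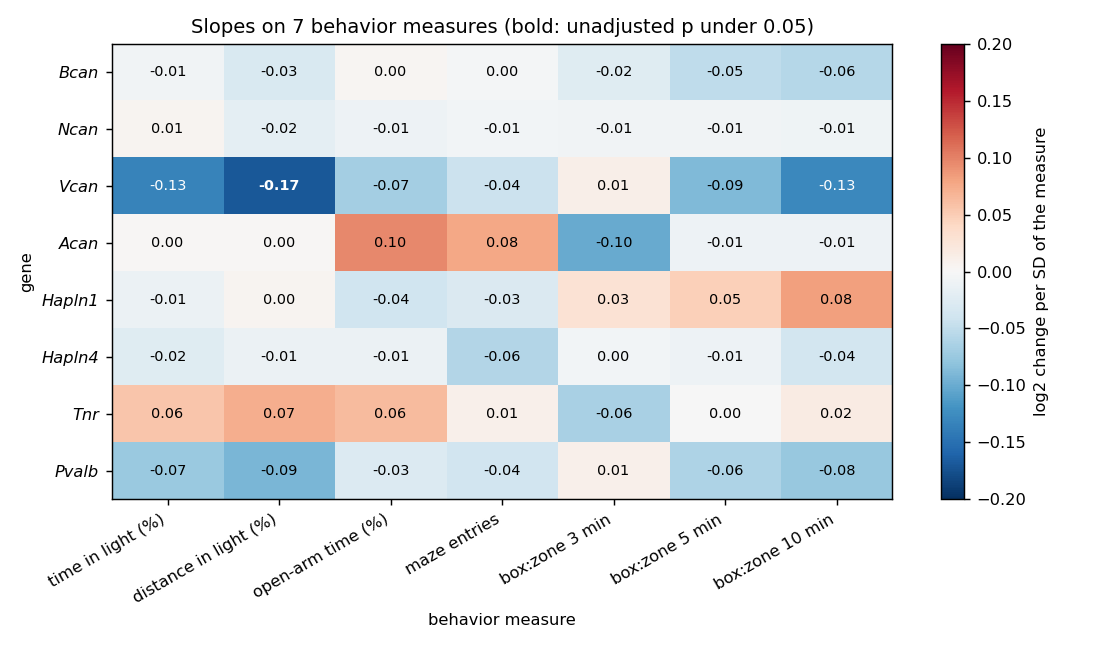
Slope of each gene (y axis) on each of 7 behavior measures (x axis), as log2 change per SD of the measure from separate edgeR fits, with color for size and direction. The strongest cell is Vcan on distance in the light (-0.17, in bold, the only slope with an unadjusted p under 0.05), and most others lie within 0.1 of 0.

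The 1 unadjusted relation among 56 stood beside the following shares over all genes. Unadjusted p-values under 0.05 were found for 3.55% of all genes with time in the light, 5.8% with distance in the light, 5.84% with open-arm time, 6.97% with maze entries, and 7.65%, 6.56% and 8.05% with the social ratio at 3, 5 and 10 min. After adjustment the shares were 0.00742% for time in the light, 0% for distance in the light, open-arm time and entries, and 0.015%, 0.0111% and 0.0223% for the social ratio at the 3 times. At 3 min 10 mice entered the fit, since mouse 4 has no value there.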

How the data were processed

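Amygdala RNA of 12 female C57/BL6 mice was sequenced in a single batch with stranded mRNA libraries and single-end reads of 75 bases. Quality was checked on STAR alignments to mm10, while Salmon gave transcript abundances that tximport summed per gene. For 47729 genes, the authors deposited these estimated counts as unnormalized whole numbers. Tool versions, annotation release and the strand setting are not given in the sources used here, and reads of overlapping or near-identical genes are less certain.

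Gene names, coordinates and exon lengths came from GENCODE M21 (GRCm38, the same build as mm10), in which 47310 genes had an entry, and promoters from RefSeq (GRCm38.p6), which held 7 of the 8 members. Groups and behavior values came from the labels. CPM used TMM factors of the 11 mice with a group, and log2 CPM a prior count of 2. Groups were compared with edgeR's quasi-likelihood F-test (robust, at least 10 reads in total, score of the first principal component of DESeq2's variance-stabilized counts as a covariate, 2 degrees of freedom for the 3 groups), with Benjamini-Hochberg adjustment over all 26963 genes and a threshold of 0.05. DESeq2's likelihood ratio test, which the study used, was an alternative. Behavior slopes were fitted without the covariate. Correlations used 100000 permutations, two-sided. Labels do not say whether mice shared cages or litters, so p-values measure the spread between these mice.

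The members and gene lists were chosen with earlier results of these data known. Named beside the 8 members are the 3 genes most like each, the list genes with an adjusted or unadjusted p under 0.05 (at most 5 per list), and Hapln2, Hapln3, Tnc, Ptprz1, Gad1, Kcnc1 and Syt2. Slc1a3, Gm4117 and the markers Adgrl4, Cck, Kcnj13 and Tbr1 fall outside this rule and were picked after their values were seen. Alternatives covered the size factors, count filter, test, robust option, covariate, coding of groups and measures, transform, transcript length, mouse 5 and each mouse left out. The edgeR step was tested on simulated data with 200 changed genes. Fits ran in DESeq2 1.42.0 and edgeR 4.0.16 under R 4.3.3, and plots in matplotlib 3.10.9 and permutations in numpy 2.4.6 under Python 3.11.15.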

Additional observations from a re-analysis of the deposited data

Results flagged for a closer look

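Among 16 groups of 4 mice (8 genes in the anxious and the more anxious mice), 1 held a mouse far from the others. Bcan was at 256 CPM in the anxious mouse 4, with a gap to the next mouse of 0.864 of the range of the group, beyond the limit of Dixon's test at this size. Chance alone marks about 1 in 20 such groups. The same mouse had the highest Vcan of all 11.

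Mouse 5, which has no anxiety state and entered no group comparison, lay above the other 11 mice in 2 genes. Tnr was at 233 CPM there, against 168 to 227 CPM in the others, and Hapln1 was at 25.3 CPM, against 15.8 to 25.2 CPM.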

How the results depend on the processing

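The count of the 8 genes called at an adjusted p under 0.05 was 0 under every alternative run, for the 3 groups (17 alternatives), for more against less anxious mice (16) and for the behavior measures (18), and the count among the genes of the matrix, chondroitin synthesis, protease and parvalbumin interneuron lists was 0 under all 16, DESeq2 included. Of the markers of other cell types, DESeq2 called Slc1a3, Adgrl4, Cck, Kcnj13 and Tbr1 (adjusted p 0.0293, 0.0326, 0.00988, 0.000627 and 0.0474), none of which edgeR called. The order of levels held for 8 of 8 genes. Tnr kept its direction throughout, from -0.31 to -0.22 on the log2 scale with a mouse left out. With a mouse left out, pairs with r of at least 0.6 numbered 1 to 3, where 1 came without mouse 7, and with mouse 5 included r of Bcan and Ncan was 0.50. No paired analysis was run, since each mouse belongs to a single group and the labels pair no mice across groups.

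Log2 fold changes near 0 changed sign with a mouse left out, and their ranges were -0.033 to 0.18 for Pvalb, -0.089 to 0.20 for Ncan, -0.037 to 0.23 for Vcan, -0.19 to 0.055 for Hapln4, -0.40 to 0.10 for Syt2, -0.25 to 0.17 for Hapln2, -0.41 to 0.11 for Tnc and -0.0094 to 0.14 for Kcnc1. The slope of Vcan on time in the light was 0.00216 with mouse 5 included. The number of unadjusted behavior relations ran from 0 to 3 with a mouse left out and was 2 with the covariate and 0 with mouse 5, and the cause was not tested. Depth limited Acan most, and with 3 or 4 mice a group the 95% intervals of the 8 fold changes extended as far as -0.63 (Acan) and 0.55 (Vcan).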

Other observations

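Mouse 5 carried little versican transcript. Vcan had 247 reads there, or 7.52 CPM, against 762 to 1708 reads and 23.0 to 44.7 CPM in the 11 mice with an anxiety state. Pvalb (6.82 CPM) and Bcan (212 CPM) were also below the other mice, whose lowest values were 7.28 and 219 CPM, whereas Acan (4.11 CPM), Ncan (207 CPM) and Hapln4 (66.3 CPM) lay within their range. The labels put this mouse in no group, and these values enter no comparison of groups.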
